A study of Mus musculus with 104 samples.

Results

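The 38 genes described here encode the plasma proteins, receptors and export machinery of blood clotting and of fibrinolysis, the dissolving of clots. They were chosen by symbol as genes of these pathways, with earlier results of these data known, and 37 of the 38 had a mean of at least 0.5 CPM, counts scaled to the size of the library, over all libraries, against 13132 of the 55416 genes in the files. Serpina5, at 0.0892 CPM, did not, and 35 of the 38 passed the filter on low counts and were tested (F8, Klkb1 and Serpina5 were not). The libraries came from primary mouse hepatocytes (PMH), liver cells bought from a supplier and cultured in 384-well plates, which were collected 24 h after transfection with Lipofectamine RNAiMax. D1, D2 and D3 share 1 siRNA sequence against Hao1 and D4, D5 and D6 share 1 against Ttr. D1 and D4 are the parents without glycol nucleic acid (GNA, an acyclic nucleic acid analogue), D2 has GNA-C and D3 GNA-isoC at guide position 5, and D5 has GNA-G and D6 GNA-isoG at guide position 6. Doses were 0.1, 1, 10 and 50 nM of each siRNA, with 4 libraries at each, and mock-transfected cells gave another 8. The labels give neither the strain, sex or number of donor animals nor whether replicates came from separate cultures, so p-values measure the spread between these libraries only.

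The liver makes most of the circulating clotting factors, their inhibitors and plasminogen, and secretes them. Clotting can start from the contact system (F12, prekallikrein and kininogen) or from tissue factor with F7, and both routes activate F10, which with F5 turns prothrombin (F2) into thrombin. Thrombin turns fibrinogen into fibrin, which F13 crosslinks, serpins and the protein C system restrain the cascade, and plasmin, made from plasminogen by its activators, dissolves the clot.

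Libraries held between 3409963 and 6160626 counts, and the targeted mRNAs followed the labels. Hao1 was below every mock library in 48 of 48 libraries of D1 to D3, and Ttr in 48 of 48 libraries of D4 to D6, although the fall of Ttr with D5 at 0.1 nM did not pass the test (adjusted p = 0.128, edgeR). All 10 hepatocyte markers were detected and summed to between 16938 and 19929 CPM in mock. Of the defining markers of other liver cells, Kdr, Clec4g and Cdh5 (sinusoidal endothelium), Clec4f, Adgre1, Marco, Vsig4, Cd5l and Ptprc (macrophages) and Des (stellate cells) were at 0 in all 8 mock libraries. Other markers on the same lists were present, with medians in mock of 19.7 CPM for Cd68 (macrophages), 20.6 CPM for Reln and 0.5005 CPM for Col1a1 (stellate cells) and 7.12 CPM for Stab1 and 1.01 CPM for Lyve1 (sinusoidal endothelium), and 5 of 5 cholangiocyte markers were detected. Cholangiocyte markers summed to between 150.1 and 177.0 CPM in mock and between 163.9 and 246.8 CPM over the libraries at 50 nM. At that dose 1 to 4 of the 5 rose with each siRNA, where 3.08% (D2) to 16.7% (D4) of all genes were called higher. The part of these markers in the results below was not tested. The share of all counts taken by the 38 genes was 0.474% to 0.672% in mock, with replicates 5 and 6 highest (0.645% and 0.672%). Replicate 1 of D3 at 1 nM stood apart with Col3a1 at 18.2 CPM, against at most 1.03 CPM in the other 103 libraries. Fewer cells and less RNA per cell cannot be told apart in such bulk libraries.

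Off-target repression by a guide strand acts mostly through its seed, guide positions 2 to 8, paired to a 3′-UTR, so the members' transcripts were searched for the seed complements. These are ATCGACA for D1 to D3 and CTCTATA for D4 to D6, or the last 6 of these letters followed by A (TCGACAA and TCTATAA), read on the transcript strand. The Hao1 site (GRCm39, chr2:134340220-134340242, minus strand, coding sequence) is shown for the full match, and the single 3′-UTR match found in each of Plat (chr8:23272696-23272725, plus strand) and Thbd (chr2:148216053-148216082, minus strand) for the members. Capitals mark the letters searched for, which are the match to guide positions 2 to 8 and, where present, the A that follows it opposite position 1 (in the Thbd stretch, positions 2 to 7 and that A).
Hao1 site: cagaatgtgaaagtcATCGACAA
Plat 3′-UTR: ttctttataaaCTCTATAgatggttgggag
Thbd 3′-UTR: gtgagcgattgTCTATAAtaaaccaattta
The Plat match starts at base 585 of a 3′-UTR of 749 bases. The Thbd match starts at base 3027 of 3053, in 1 annotated transcript. No member had a match to the Hao1 guide in its longest annotated 3′-UTR, and no member other than Plat and Thbd had a match to the Ttr guide there. Among all tested genes with a 3′-UTR the share with a match was 2.84% to 2.86% for the Hao1 guide and 20.2% to 20.3% for the Ttr guide. Outside the 3′-UTR, matches to the Ttr guide lay in coding sequence of F9, Fgg, Serpina10 and Serpinc1 and in the 5′-UTR of F8, and matches to the Hao1 guide lay in coding sequence of Fga, Kng1 and Lman1 and in the 5′-UTR of Fgb.

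Levels in mock were compared per length, in TPM (counts per exon length, scaled to the same sum in each library) computed from the counts and exon lengths. Fgb, the fibrinogen beta chain, was highest at 2304 ± 472 TPM (SD, n = 8), followed by Fga at 770 ± 163 TPM, Kng1 (kininogen) at 519 ± 47.3 TPM and Fgg at 400 ± 30.1 TPM (SD, n = 8 each). F12 stood at 146 ± 12.98 TPM (SD, n = 8), within 1 SD of the members next above it, Hrg (154 TPM) and Kng2 (158 TPM). The member next below it was Serpinc1 at 105 TPM. F13b was at 22.1 ± 2.55 TPM, Tfpi at 3.55 ± 1.37 TPM and Klkb1, which encodes prekallikrein, at 1.16 ± 0.360 TPM (SD, n = 8 each). Plat and Plaur, the tissue plasminogen activator and the urokinase receptor, reached 166 ± 21.6 and 192 ± 15.8 TPM (SD, n = 8 each).

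The first question was whether F12, the protease that starts the contact pathway, rose and whether other clotting genes rose with it. In mock, F12 was at 67.4 CPM in the lowest library, 79.6 CPM at the median and 88.2 CPM in the highest. At 50 nM the 4 libraries, in order of replicate, were at 95.6, 99.4, 85.3 and 88.4 CPM with D1, 82.1, 95.6, 95.4 and 88.9 CPM with D2, and 90.6, 92.7, 86.0 and 88.9 CPM with D3. With the Ttr siRNAs they were at 86.3, 98.0, 85.3 and 93.3 CPM for D4, 96.9, 92.9, 79.0 and 89.3 CPM for D5, and 92.7, 99.4, 87.6 and 78.2 CPM for D6. Between 2 and 3 of the 4 libraries lay above the highest mock library for each siRNA, and each group overlapped mock. Only D6 at 10 nM, with 95.6, 91.3, 91.0 and 90.3 CPM, had all 4 libraries above mock among the 24 groups.

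**Figure D1:**
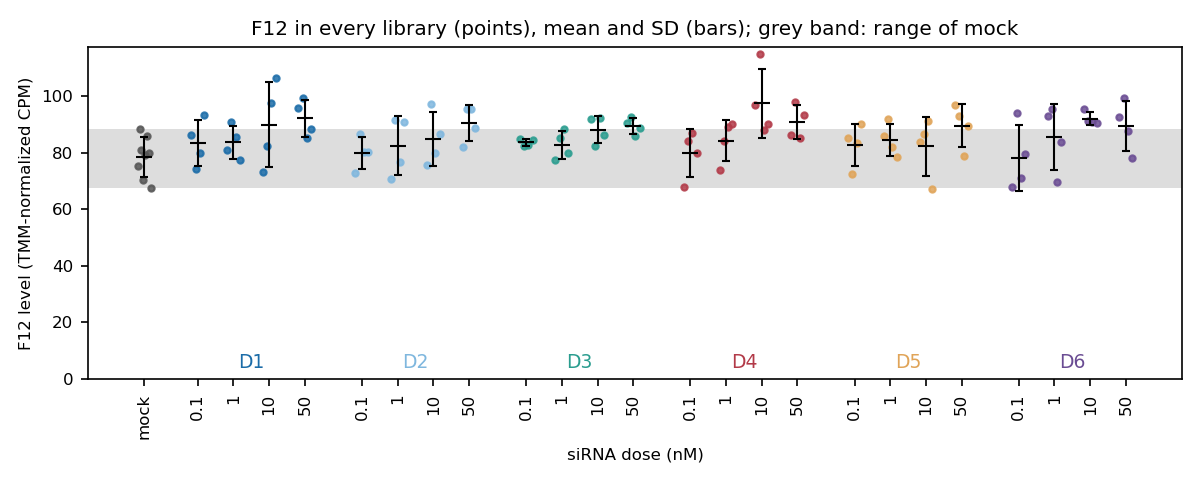
F12 in every library. The x axis gives the mock group and each siRNA by dose (nM), the y axis TMM-normalized CPM, points are libraries, bars the mean and SD, and the grey band the range of mock from 67.4 to 88.2 CPM. Most groups at 10 and 50 nM sit in the upper part of the band or above it, and most groups at 0.1 nM sit within it.

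The log2 fold change of F12 against mock was at or above 0 in 24 of 24 comparisons, from 0.00 to 0.09 at 0.1 nM, 0.08 to 0.13 at 1 nM, 0.06 to 0.31 at 10 nM and 0.19 to 0.23 at 50 nM. At 0.00 (D6 at 0.1 nM) the mean log2 CPM lay 0.01 below mock. It passed the test (edgeR quasi-likelihood test, adjusted over all genes tested) in 6 of the 24, namely D1 at 50 nM (0.23 ± 0.07 SE, adjusted p = 0.013), D3 at 50 nM (0.20, 0.0206), D4 at 10 nM (0.31, 0.00313) and 50 nM (0.21, 0.014), and D6 at 10 nM (0.23, 0.0101) and 50 nM (0.19, 0.0394). For D2 and D5 at 50 nM it did not (0.21 and 0.19 on the log2 scale, adjusted p = 0.0598 and 0.123). When each of the 12 libraries was left out in turn at 50 nM, F12 passed in 10 of 12 tests with D1, 3 with D2, 8 with D3, 11 with D4, 0 with D5 and 4 with D6. With DESeq2 the call with D6 at 50 nM was lost (adjusted p = 0.0714), as it was in 1 fit of all libraries (0.0596), where that with D3 at 50 nM was lost too (0.0709). Its log2 fold change with D6 fell to 0.13 (adjusted p = 0.244) without replicate 2 of D6, the library at 99.4 CPM. In an exact two-sided permutation test over libraries, whose smallest p is 0.00404 for 4 against 8, no comparison passed after adjustment over the 24 (lowest adjusted p = 0.0646). Between 50 and 0.1 nM of the same siRNA, F12 was 0.09 to 0.19 higher on the log2 scale in 6 of 6 siRNAs, and none passed (adjusted p = 0.107 to 0.733, edgeR). Between siRNAs of the same target it differed by -0.24 to 0.17 over 12 comparisons, none of which passed. The largest difference, D5 against D4 at 10 nM, was -0.24 with a 95% interval from -0.45 to -0.03.

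The change of F12 was not shared by all members, and its rank among them differed between siRNAs. At 50 nM, between 6 (D6) and 18 (D3) of the 34 other tested members had a log2 fold change at or above that of F12. At 10 nM these were between 4 (D4) and 22 (D3). F2 (prothrombin) was the only other member above 0 in 24 of 24 comparisons, with 0.05 to 0.27 and 6 calls. The median log2 fold change of the 35 members was above 0 with D1, D2, D3 and D5 at 50 nM (0.17, 0.14, 0.21 and 0.13), 0.07 with D4 and -0.04 with D6, whereas that of all tested genes stayed between -0.01 and 0.01. All 24 comparisons share the mock libraries, in which the median over members at 0.1 nM already lay at 0.00 to 0.12, with 17 to 28 of 35 members above 0.

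**Figure D2:**
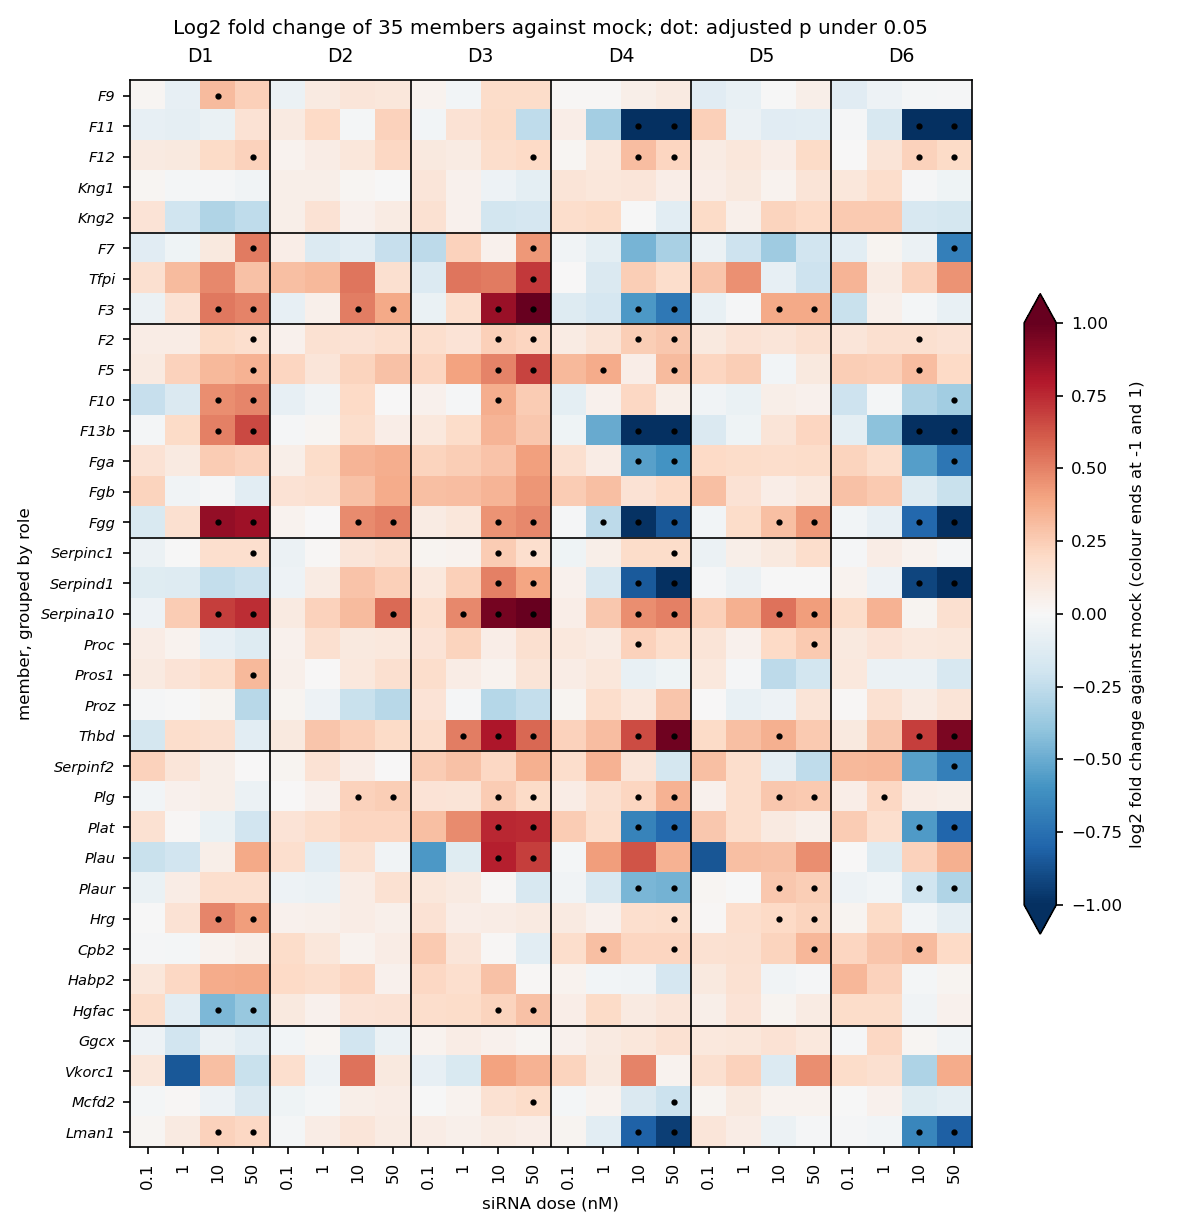
Log2 fold change of the 35 tested members (y axis, grouped by role) against mock for each siRNA and dose (x axis, nM), with colour ends at -1 and 1 and a dot where the adjusted p is under 0.05. Dots are absent at 0.1 nM and gather at 10 and 50 nM, and the cells below -1 are those of F13b, F11, Serpind1 and Fgg with D4 or D6.

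At 0.1 nM no member passed the test against mock with any siRNA, where 0.320%, 0.00885%, 0.00886%, 0.00886%, 0.00% and 0.0532% of all genes tested did with D1 to D6. By unadjusted p under 0.05, 0 to 8 members per siRNA did so at that dose, and DESeq2 called 0 by adjusted p. The share of all genes at that unadjusted threshold was not computed, so the 0 to 8 cannot be set against it. At 1 nM, 2 members were called higher with D3 (0.407% of all genes called), 2 higher and 1 lower with D4 (2.07%), 1 higher with D6 (2.13%) and none with D1, D2 and D5 (0.632%, 0.00886% and 0.0444%). Without replicate 1 of D3, the library with collagen reads, 1 member was called higher with D3 at that dose. At 10 nM, 8 members were called higher and 1 lower with D1 (8.43% and 10.6% of all genes, 19.0% in both directions), 3 and 0 with D2 (1.17% and 1.09%, 2.26%) and 13 and 0 with D3 (8.54% and 8.90%, 17.4%). For the Ttr siRNAs at 10 nM these were 6 and 9 with D4 (12.2% and 14.4% of all genes, 26.6% in both directions), 7 and 0 with D5 (4.58% and 3.54%, 8.12%) and 5 and 7 with D6 (11.9% and 13.9%, 25.8%). Mock replicates 5 and 6 bore on these counts. Without them, 0 to 4 members were called per siRNA at 0.1 nM, 0 to 10 at 1 nM, 6 to 19 at 10 nM and 10 to 21 at 50 nM, where the share of all genes called was at most 0.659%, 4.19%, 24.8% and 33.7% at these doses. Calls of members over the 24 comparisons went from 99 higher and 40 lower to 159 and 41, and the share of all genes called over the 24 from 9.93% to 9.85%. Both libraries were picked for their high share of member counts, so leaving them out could only move the members upwards on balance.

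At 50 nM the directions were uneven. With D1, 13 members were called higher and 1 lower, where 11.7% of all genes were called higher and 14.2% lower. With D3 they were 16 and 0, against 13.5% and 14.8% of all genes, and with D2 they were 4 and 0, against 3.08% and 2.96%. With D5 they were 8 and 0, against 4.58% and 1.97%. D4 and D6 differed from these, with 9 higher and 10 lower against 16.7% and 17.9% of all genes for D4, and 2 higher and 11 lower against 15.0% and 16.5% for D6. Counted over both directions, 25.9% of all genes were called with D1, 6.04% with D2, 28.3% with D3, 34.6% with D4, 6.55% with D5 and 31.5% with D6.

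**Figure D3:**
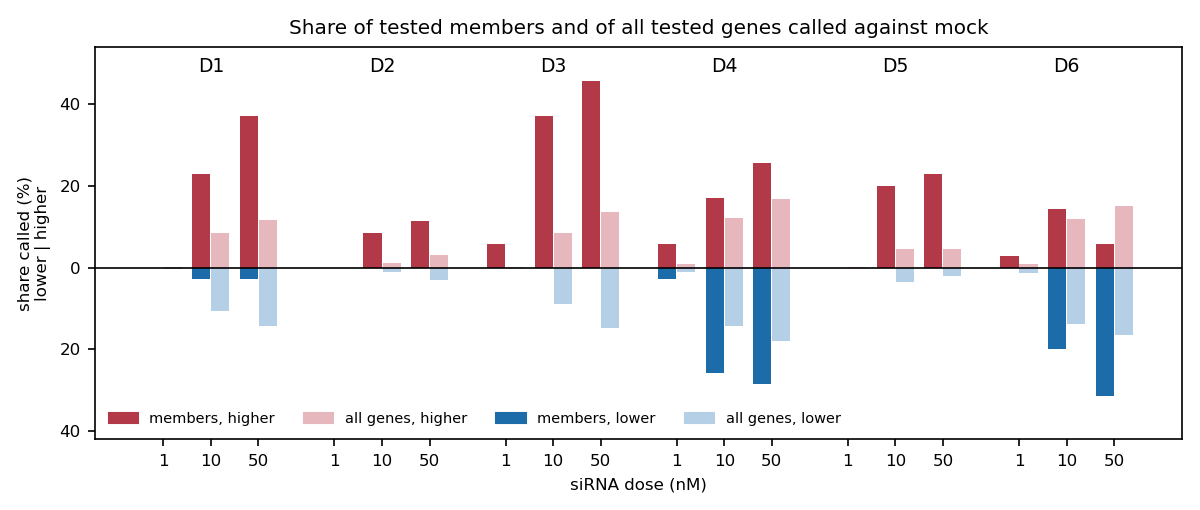
Share of the 35 tested members (dark bars) and of all tested genes (light bars) called against mock, higher above 0 and lower below it, by siRNA and dose (nM). At 10 and 50 nM the dark bars point almost only upwards for D1, D2, D3 and D5 and reach further down than up for D4 and D6.

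In the intrinsic pathway, F11, the factor that thrombin and F12 activate, fell with D4 and D6, in which F12 rose. It was at 24.2 CPM in the lowest mock library, 27.8 CPM at the median and 34.9 CPM in the highest. With D4 at 50 nM the 4 libraries were at 15.5, 15.4, 9.87 and 13.8 CPM and with D6 at 11.4, 8.89, 13.3 and 9.01 CPM, all below every mock library. With D5 they were at 21.0, 23.5, 35.1 and 26.4 CPM and overlapped mock, as did those of D1 (24.1 to 41.3 CPM), D2 (29.1 to 41.5 CPM) and D3 (22.3 to 26.5 CPM). The log2 fold change was -1.07 ± 0.12 (SE, adjusted p = 5.55e-09, edgeR) with D4, -1.43 ± 0.13 (adjusted p = 5.43e-11) with D6 and -0.10 ± 0.12 (adjusted p = 0.718) with D5, and with D1, D2 and D3 it was 0.14, 0.23 and -0.26, none of which passed. F9, the next protease of this route, was called once, 0.32 higher with D1 at 10 nM, and its range over the 24 comparisons was -0.11 to 0.32. Kng1 and Kng2, the kininogens that carry F11 and prekallikrein, were called in none (-0.09 to 0.17 and -0.30 to 0.26), and as close copies of each other they may have exchanged or lost reads. Without mock replicates 5 and 6 they were called higher in 4 and 7. Between 50 and 0.1 nM of the same siRNA, which leaves mock out, neither was called higher. There Kng2 was called lower with 4 of the 6 siRNAs (its lowest value was -0.44) and Kng1 with 1 (D3, -0.22).

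In the extrinsic pathway, F3 (tissue factor, the membrane receptor that starts clotting) was called in more comparisons than F12, in both directions. Mock libraries ranged from 61.2 to 79.1 CPM with a median of 66.1 CPM. At 50 nM, D3 was at 143, 141, 126 and 134 CPM and D4 at 49.0, 44.9, 40.1 and 29.6 CPM, so that one group lay wholly above mock and the other wholly below it. On the log2 scale the change was 0.50, 0.38 and 1.02 with D1, D2 and D3, -0.72 with D4 and 0.38 with D5 (adjusted p = 2.79e-06, 0.00107, 4.13e-16, 4.11e-07 and 0.000653, edgeR), and -0.07 ± 0.08 with D6 (adjusted p = 0.523). F7, the protease that tissue factor binds, is a low transcript here with 6.41 to 11.03 CPM in mock. It was at 11.9, 11.3, 13.1 and 11.4 CPM with D1 at 50 nM, above every mock library, and at 6.95, 4.63, 4.84 and 4.13 CPM with D6, which overlapped mock in 1 library. These were differences of 0.52 ± 0.16 and -0.69 ± 0.19 on the log2 scale (SE, adjusted p = 0.0151 and 0.0055, edgeR). Tfpi, the inhibitor of tissue factor and F7, was at 2.998 to 7.53 CPM in mock and passed once, with D3 at 50 nM (6.91, 7.88, 9.06 and 6.25 CPM, a log2 fold change of 0.71 ± 0.22, adjusted p = 0.0131), where its libraries overlapped mock.

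The 3 fibrinogen genes, which encode the chains of 1 protein and lie side by side on chromosome 3, differed in how often they were called. Fgg (gamma chain) ranged from 176 to 226 CPM in mock with a median of 218 CPM. At 50 nM it was at 382, 409, 374 and 356 CPM with D1, 285, 291, 331 and 291 CPM with D2 and 319, 310, 280 and 268 CPM with D3, all above every mock library. With D5 it was at 244, 276, 298 and 324 CPM, again above, and with D4 and D6 it was at 125, 123, 111 and 111 CPM and at 107, 105, 106 and 101 CPM, all below every mock library. The log2 fold change at 50 nM was 0.85, 0.51 and 0.48 with D1, D2 and D3, -0.85 with D4, 0.44 with D5 and -1.01 with D6, with SEs of 0.06 to 0.07, and all 6 passed, as did all 6 at 10 nM (0.30 to 0.88 with D1, D2, D3 and D5, -0.99 with D4 and -0.78 with D6). With D4 it was already lower at 1 nM (-0.26 ± 0.06, adjusted p = 0.00594, edgeR).

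Fga (alpha chain) fell with D4 and D6 at 50 nM, from 428 to 730 CPM in mock to 270, 394, 287 and 468 CPM and to 301, 425, 365 and 217 CPM. The D6 libraries lay below every mock library and 1 D4 library did not (log2 fold changes of -0.60 ± 0.20 and -0.72 ± 0.21, adjusted p = 0.0425 and 0.0244, edgeR). Without the filter on low counts neither call held (adjusted p = 0.0841 and 0.0516, edgeR). Fgb (beta chain) passed in none of the 24 comparisons (-0.22 to 0.44), and its libraries ranged from 1507 to 2643 CPM in mock, from 1942 to 2559 CPM with D4 at 50 nM and from 1249 to 1906 CPM with D6. Mock replicates 5 and 6 held the 2 highest values of both Fga and Fgb. Without them Fgb was called higher in 11 of 24 comparisons, by 0.36 with D4 and 0.60 with D3 at 50 nM, and Fga in 7, while the fall of Fga with D4 at 50 nM no longer passed (-0.44, adjusted p = 0.0845, edgeR) and that with D6 did (-0.56, adjusted p = 0.0466). Against 0.1 nM of the same siRNA, which leaves mock out, D6 at 50 nM was lower for all 3 genes (Fga -0.94, Fgb -0.51 and Fgg -0.98, with adjusted p = 0.023 and 0.0404 for Fga and Fgb, edgeR), D4 was lower for Fga (-0.77) and Fgg (-0.84), and with D1 Fgb was lower (-0.33, adjusted p = 0.0253) while Fgg was higher. Without the filter on low counts Fga and Fgb with D6 did not pass there (adjusted p = 0.0504 and 0.113, edgeR), nor did Fgb with D1 under DESeq2 (0.0569).

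**Figure D4:**
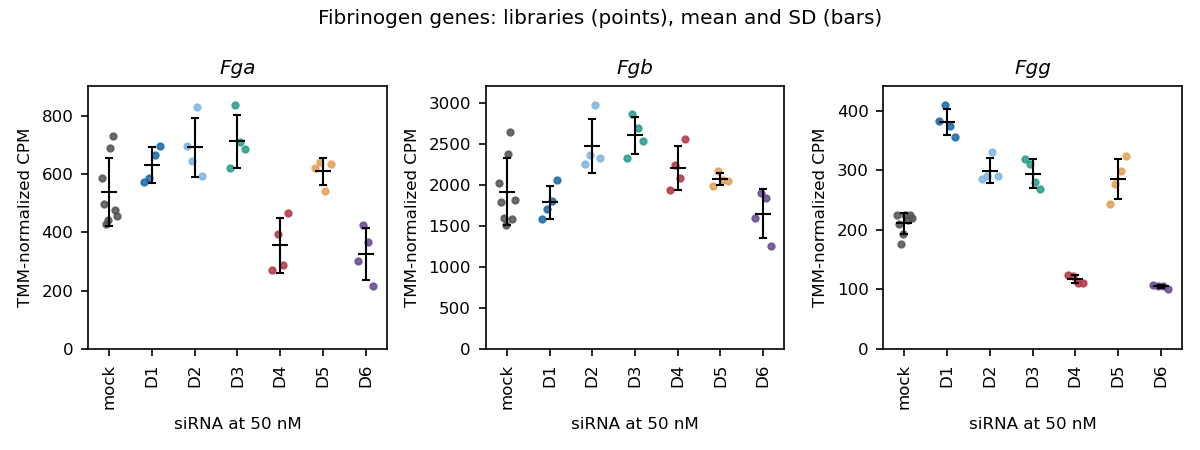
The fibrinogen genes Fga, Fgb and Fgg in mock and with each siRNA at 50 nM (x axis), in TMM-normalized CPM from 0 (y axis), with libraries as points and the mean and SD as bars. Fgg separates into D1, D2, D3 and D5 above mock (243.7 to 409 CPM) and D4 and D6 below it (101 to 125 CPM), whereas Fgb overlaps mock with all 6 siRNAs.

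F13b, the carrier subunit of the factor that crosslinks fibrin, showed the largest change of any member. It was at 11.1 CPM in the lowest mock library, 11.9 CPM at the median and 15.4 CPM in the highest. With D4 at 50 nM it was at 3.01, 3.17, 2.57 and 3.002 CPM and with D6 at 4.05, 3.33, 4.23 and 3.002 CPM, far below mock, with D5 at 15.5, 14.6, 11.9 and 15.7 CPM, overlapping it, and with D1 at 17.9, 16.6, 21.3 and 22.4 CPM, above it. Its fold change on the log2 scale was -2.06 ± 0.18 with D4, -1.76 ± 0.17 with D6, 0.21 ± 0.14 with D5 and 0.66 ± 0.13 with D1 (SE, adjusted p = 9.86e-12, 5.71e-10, 0.433 and 0.000113, edgeR). At 10 nM it was -2.41 ± 0.20 with D4 and -2.04 ± 0.21 with D6, and at 1 nM it was -0.51 and -0.41, which did not pass (adjusted p = 0.0577 and 0.134). Of the other genes of the common pathway, F5, the cofactor of F10, was called higher in 6 of 24 comparisons, most with D3 at 50 nM (0.67), and F2 was called higher in 6. F10 was called higher in 3 (2 without mock replicates 5 and 6), by 0.36 to 0.49, and lower with D6 at 50 nM (-0.35).

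Among the anticoagulants, Serpind1 (heparin cofactor II, an inhibitor of thrombin) went down with D4 and D6, and Serpina10 and Thbd went up with some siRNAs. With D4 and D6 at 10 and 50 nM, Serpina10 changed by only 0.03 to 0.50 on the log2 scale, with 2 calls. Serpind1 was at 33.6 to 49.1 CPM in mock with a median of 43.6 CPM, at 25.1, 18.6, 17.8 and 20.6 CPM with D4 and at 15.8, 22.96, 18.5 and 18.2 CPM with D6 at 50 nM, below every mock library. With D5 it was at 42.8, 37.3, 44.1 and 43.9 CPM, within the range of mock. Its log2 fold change was -1.04 ± 0.11 with D4 and -1.16 ± 0.11 with D6 (SE, adjusted p = 6.66e-10 and 2.54e-10, edgeR) and 0.39 ± 0.09 with D3 (adjusted p = 0.0011). Serpina10, the inhibitor of F10 that binds protein Z, had the highest mean over the comparisons at 10 and 50 nM (0.54) and was called higher in 10 of 24 and lower in none. From 15.5 to 30.01 CPM in mock it reached 40.2, 47.5, 49.9 and 46.3 CPM with D3 and 37.0, 30.2, 42.9 and 40.1 CPM with D1 at 50 nM, both groups above every mock library. These were log2 fold changes of 1.04 ± 0.11 and 0.74 ± 0.12 (SE, adjusted p = 1.13e-09 and 1.45e-05, edgeR).

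Thbd (thrombomodulin, the thrombin receptor that activates protein C) was at 17.4 to 31.6 CPM in mock. At 50 nM it was at 51.6, 41.6, 56.7 and 47.4 CPM with D4, 46.5, 48.5, 50.2 and 48.2 CPM with D6 and 32.1, 39.2, 42.1 and 35.7 CPM with D3, all above every mock library. With D5 it was at 19.9, 30.3, 45.7 and 22.98 CPM, the widest spread of the 6 groups. The log2 fold change was 0.97 ± 0.11, 0.94 ± 0.10 and 0.58 ± 0.11 with D4, D6 and D3 (SE, adjusted p = 1.45e-08, 4.32e-09 and 0.000131, edgeR) and 0.26 ± 0.20 with D5 (adjusted p = 0.559). With D1 at 50 nM it was -0.10, which was not called. Thbd was higher with D4 and D6, and the 3′-UTR of 1 of its annotated transcripts holds the match to their seed shown above. Whether these cells express that transcript was not tested. Antithrombin (Serpinc1) was called higher in 4 comparisons by 0.17 to 0.25, protein C (Proc) in 2 and protein S (Pros1) in 1, and protein Z (Proz) in none.

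In fibrinolysis, Plat, the tissue plasminogen activator, rose with D3 and fell with D4 and D6. Mock libraries ranged from 199 to 311 CPM with a median of 239 CPM. At 50 nM, D3 was at 377, 417, 455 and 436 CPM, D4 at 143, 123, 164 and 156 CPM and D6 at 150, 149, 130 and 152 CPM, the first above every mock library and the others below. D5 was at 243, 297, 261 and 243 CPM, within the range of mock. The difference from mock was, in log2 units, 0.75 ± 0.10 with D3, -0.78 ± 0.12 with D4 and -0.80 ± 0.10 with D6 (SE, adjusted p = 0.000199, 0.000274 and 2.54e-05, edgeR). Plat was the 1 member with a 3′-UTR match that was called lower at 50 nM with D4 and D6, beside 9 and 10 members without a match. Of all tested genes with a match, 29.2% were called lower with D4 and 27.0% with D6. Of all tested genes, with or without a match, 17.9% and 16.5% were. Its receptor-bound counterpart urokinase (Plau) was near the limit of this depth, with 1.75 to 3.75 CPM in mock, and passed only with D3 (0.78 ± 0.25 at 10 nM and 0.69 ± 0.25 at 50 nM, adjusted p = 0.0287 and 0.0325, edgeR), where at 50 nM the libraries stood at 3.70, 5.38, 4.23 and 3.91 CPM. Without the filter on low counts neither passed (adjusted p = 0.0538 and 0.0809, edgeR), and with DESeq2 Plau at 50 nM did not (0.0692). Plaur fell with D4 and D6 at 10 and 50 nM (-0.47 to -0.20) and rose with D5 (0.27 and 0.24). Plasminogen (Plg) was called higher in 9 of 24 comparisons, by 0.19 to 0.35, more often than any member but Serpina10. Histidine-rich glycoprotein (Hrg), which binds plasminogen, was called higher in 5 and the fibrinolysis inhibitor Cpb2 in 4. The plasmin inhibitor Serpinf2 was called lower once (-0.69 with D6 at 50 nM), Hgfac, an activator of hepatocyte growth factor, 2 times in each direction, and the protease Habp2 in none. Without mock replicates 5 and 6, Serpinf2 was called higher in 4 and lower in 2, and Habp2 higher in 3.

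Of the genes that finish and export clotting factors, Lman1, the cargo receptor that carries F5 and F8 out of the endoplasmic reticulum, fell. It was at 143 to 168 CPM in mock with a median of 157 CPM, at 88.6, 72.5, 86.7 and 78.1 CPM with D4 and at 89.6, 90.7, 99.5 and 77.1 CPM with D6 at 50 nM, below every mock library, and at 146, 159, 153 and 164 CPM with D5, within the range of mock. The log2 fold change was -0.94 ± 0.06 with D4, -0.81 ± 0.06 with D6 and 0.21 ± 0.05 with D1 (SE, adjusted p = 1.51e-15, 1.59e-12 and 0.00339, edgeR). Its partner Mcfd2 was called in 2 of 24 comparisons (0.19 with D3 and -0.21 with D4, both at 50 nM). Ggcx and Vkorc1, the enzymes of the vitamin K cycle, were called in none, and Vkorc1 ranged widely (-0.85 to 0.54) at a mean of 2.98 CPM.

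**Figure D5:**
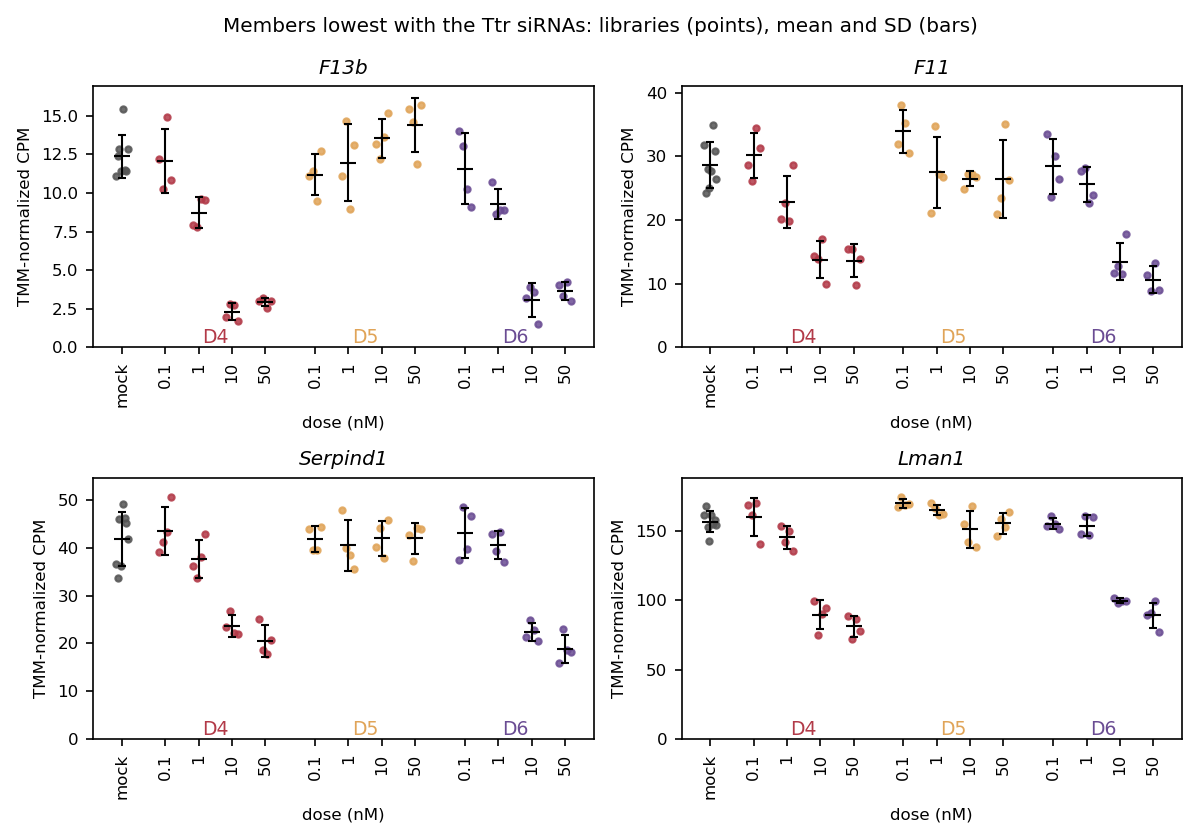
F13b, F11, Serpind1 and Lman1, the 4 members with the lowest mean log2 fold change at 10 and 50 nM, in mock and with D4, D5 and D6 by dose (nM), in TMM-normalized CPM from 0, with libraries as points and the mean and SD as bars. With D4 and D6 the values drop between 1 and 10 nM, and with D5 they stay near mock at all 4 doses.

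The comparison of 50 with 0.1 nM of the same siRNA does not use the mock libraries. There, 11 members were called higher and 3 lower with D1 (19.4% of all genes called), 2 and 0 with D2 (1.85%), 7 and 4 with D3 (20.3%), 5 and 11 with D4 (25.7%), 2 and 1 with D5 (1.94%) and 1 and 12 with D6 (24.4%). The members with the largest changes kept their direction. F13b changed by -2.03 ± 0.22 with D4 and -1.67 ± 0.21 with D6, F11 by -1.15 and -1.42, Serpind1 by -1.09 and -1.19 and Lman1 by -0.98 and -0.80 on the log2 scale, and all passed. Fgg changed by 0.995 with D1, 0.47 with D2, 0.39 with D3, -0.84 with D4, 0.45 with D5 and -0.98 with D6, all of which passed, and F3 by 1.07 ± 0.07 with D3 (adjusted p = 1.91e-10, edgeR). The rises of Plat, Thbd and Serpind1 with D3, called against mock at 50 nM, did not pass in this comparison. They were 0.43, 0.39 and 0.28 on the log2 scale (adjusted p = 0.0525, 0.0515 and 0.0685, edgeR).

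The siRNAs of one target differ by 1 nucleotide of the guide, and 12 pairs at matched doses of 10 and 50 nM were compared. In the Ttr series at 50 nM, 11 members were higher and 1 lower with D5 (GNA-G) than with the parent D4, where 22.9% of all genes were called, and 1 was higher and 13 were lower with D6 (GNA-isoG) than with D5 (20.4%). Of all genes, 13.8% were called higher and 9.07% lower for D5 against D4, and 8.26% and 12.2% for D6 against D5. D6 and D4 differed in 3 members (1 higher and 2 lower, 4.18% of all genes). F13b was 2.28 ± 0.21 higher with D5 than with D4 and 1.97 ± 0.20 lower with D6 than with D5 on the log2 scale (p adjusted over the 12 pairs = 2.78e-10 and 3.69e-09). D6 and D4 differed by 0.31 for F13b with a 95% interval from -0.27 to 0.88, by -0.37 for F11 (-0.73 to -0.01), by -0.12 for Serpind1 (-0.41 to 0.16) and by 0.13 for Lman1 (-0.04 to 0.29), and none of these passed. The largest called difference between D6 and D4 was that of F3, 0.64 ± 0.13 higher with D6 (p adjusted over the 12 pairs = 0.0002), with no overlap between the libraries. Hrg and Plg were lower with D6 than with D4 (-0.27 and -0.29). At 10 nM the counts were 9 higher and 0 lower for D5 against D4 (17.2% of all genes called), 1 and 12 for D6 against D5 (17.3%) and 1 and 0 for D6 against D4 (1.92%). All genes called there were 10.5% higher and 6.71% lower, 6.94% and 10.3%, and 1.22% and 0.698%, in the same order.

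In the Hao1 series at 50 nM, 12 members were higher and 6 lower with D3 (GNA-isoC) than with the parent D1 (23.8% of all genes called), 6 and 5 with D2 (GNA-C) against D1 (14.0%) and 5 and 3 with D3 against D2 (9.81%). Of all genes, 11.3% were called higher and 12.5% lower, 8.28% and 5.76%, and 3.85% and 5.96%, in the same order. Plat was 0.92 ± 0.14 higher with D3 than with D1 and 0.53 ± 0.10 higher than with D2 (p adjusted over the 12 pairs = 0.000561 for both), and F3 was 0.50 ± 0.08 and 0.64 ± 0.07 higher with D3 than with D1 and D2. F7 was lower with D2 than with D1 (-0.75 ± 0.19) and higher with D3 than with D2 (0.67 ± 0.18, not called by DESeq2 at an adjusted p of 0.054), while D3 and D1 differed by -0.10 with a 95% interval from -0.42 to 0.23. Fgg was lower with both D2 and D3 than with D1 (-0.35 and -0.38), while D3 and D2 differed by -0.02 with an interval from -0.14 to 0.10. For F12 the 6 differences at 50 nM lay between -0.05 and 0.00 and their 95% intervals between -0.19 and 0.18. At 10 nM, 2 members were higher and 2 lower for D2 against D1 (10.7% of all genes called), 5 and 2 for D3 against D1 (11.3%) and 5 and 0 for D3 against D2 (4.05%). All genes called there were 6.33% higher and 4.32% lower, 5.96% and 5.34%, and 1.66% and 2.38%, in the same order.

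Of 19 further genes of the pathway that are not among the 38, 13 were tested at 50 nM. Called higher and lower were 4 and 2 with D1, 2 and 0 with D2, 5 and 0 with D3, 4 and 2 with D4, 4 and 0 with D5 and 3 and 4 with D6. Of all genes, 25.9%, 6.04%, 28.3%, 34.6%, 6.55% and 31.5% were called with D1 to D6 at that dose. F2rl1, a receptor of clotting proteases, was higher with D4 and D6 (1.22 and 1.07), and Procr, the protein C receptor, lower (-0.39 and -0.49). Other secreted liver proteins, 26 genes such as albumin and apolipoproteins, had medians beside those of the members of 0.24, 0.15, 0.20, 0.09, 0.10 and -0.05 with D1 to D6 at 50 nM. Of these 26 genes, 16 were called higher and 1 lower with D1, 5 and 0 with D2, 18 and 0 with D3, 10 and 3 with D4, 6 and 0 with D5 and 3 and 7 with D6.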

How the data were processed

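Total RNA libraries of 104 PMH samples (TruSeq Stranded Total RNA, NextSeq500) were used. The authors filtered reads with fastq-mcf, aligned them to GRCm39 with STAR, assigned unique alignments to genes with featureCounts 2.0.2 and deposited the resulting counts without normalization, for 2 runs per library, as named in the paper and the submitters' processing notes. The annotation and whether counting used strand are not given in the sources used here. From the authors' DESeq2 tables (fold changes, p-values) only the gene symbols were taken.

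Counts of the 2 runs, which differed by little more than sampling noise (a chi-square of 0.990 to 1.07 for each degree of freedom, median 1.03), were summed. The 92 ERCC spike-ins (0.425% to 1.43% of counts) were left out. The 172 pairs of replicates differed by more (1.67 to 13.5). With 3409963 to 6160626 counts per library, members near 1 CPM rest on few counts. Each comparison held its own 2 groups and used edgeR 4.0.16 under R 4.3.3 (TMM, filterByExpr, robust quasi-likelihood test, Benjamini-Hochberg adjustment over all genes tested, called at an adjusted p under 0.05), in 24 comparisons with mock, 6 of 50 with 0.1 nM and 12 between siRNAs. Libraries were grouped by siRNA and dose, and a log2 fold change is the first-named group minus the second. F12 was also tested by exact two-sided permutation of log2 CPM (prior count 2). CPM values are TMM-normalized. Seed matches were searched in GENCODE transcripts of GRCm39 (20896 genes with a 3′-UTR). Other steps ran in Python 3.11.15 (numpy 2.4.6, scipy 1.17.1, pandas 2.3.3).

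On counts simulated from D3 at 50 nM and mock (11226 genes, 199 changed), the test recovered 33.3%, 65.7% and 93.9% of genes changed by 0.3, 0.5 and 1 on the log2 scale and called 7 unchanged genes. Same-numbered replicates did not deviate together (r from -0.224 to 0.166 over 168 pairs), so the numbers were not used as pairs.

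The members, lists and tests were chosen with earlier results of these data known. Values in full are given for F12, the 4 members with the highest and the 4 with the lowest mean log2 fold change against mock at 10 and 50 nM, the called member with the largest difference in each pair of siRNAs at 50 nM, and the fibrinogen genes. The alternatives run were no filter on low counts, RLE size factors, DESeq2 1.42.0 with betaPrior, 1 fit of all libraries, a block for the replicate number, omission of single libraries at 50 nM and, added after seeing the data, mock without replicates 5 and 6 and D3 at 1 nM without replicate 1. The lists of macrophage, endothelial and stellate cell markers had 1 tested gene each (Cd68 0.84 higher with D4, Stab1 lower by -0.62 with D4 and -1.02 with D6, Reln lower by -0.83 with D3, all at 50 nM). The hepatocyte list of 10 genes had 4 called higher and 2 lower with D1, 1 and 0 with D2, 5 and 2 with D3, 1 and 3 with D4, 2 and 1 with D5 and 1 and 5 with D6, at medians of 0.15, 0.12, 0.16, -0.15, -0.02 and -0.20. Ttr, the target of D4 to D6, is on that list and is 1 of its lower calls with each of these. At 50 nM, 25.9%, 6.04%, 28.3%, 34.6%, 6.55% and 31.5% of all genes were called with D1 to D6.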

Additional observations from a re-analysis of the deposited data

Results flagged for a closer look

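Of 123 groups of 4 or 8 libraries tested for a library far from the others, 6 held one, and chance alone gives about 1 in 20. Plau was at 1.42 CPM in replicate 1 of D2 at 50 nM, against 2.87 to 3.11 CPM in the other libraries of that group. F13b was at 15.4 CPM in mock replicate 5, against 11.1 to 12.8 CPM. At 50 nM, Plat was at 130 CPM in replicate 3 of D6 (149 to 152 CPM in the others), F3 at 52.0 CPM in replicate 2 of D6 (67.0 to 69.98 CPM), and Fgb at 2968 CPM and Fgg at 331 CPM in replicate 3 of D2 (2252 to 2364 CPM and 285 to 291 CPM). The cause was not tested.

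For F3 and Fgg, siRNAs of one target moved in opposite directions from mock at 50 nM, and the direct comparison of the siRNAs passed the test. F3 was 1.10 higher with D5 than with D4 on the log2 scale, with 0.38 and -0.72 against mock. Fgg was 1.29 higher with D5 than with D4, with 0.44 and -0.85 against mock, and differed by -1.44 between D6 and D5, with -1.01 and 0.44 against mock.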

How the results depend on the processing

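For the 15 members with values given in full, no called value changed sign under the alternatives run. With single libraries left out, signs were checked for F12 only, and the other tested members entered only as counts of calls. RLE size factors moved neither a count of members by over 1.5 times nor a call of F12. The counts at 0.1 and 1 nM and the calls of F12 at 50 nM moved most, and the cause was not tested. Members near 1 CPM, such as Plau, Vkorc1 and Klkb1, rest on few counts at this depth. On simulated counts, 33.3% of genes changed by 0.3 on the log2 scale were recovered. F12 exceeded that size only with D4 at 10 nM (0.31). The simulation changed 199 of 11226 genes at all levels, a smaller share than the 28.3% called with D3 at 50 nM. Its recovery therefore cannot be carried over to F12. DESeq2 gave no adjusted p for 44 values, which were left out. Of the named members other than F12, DESeq2 lost 11 calls and gained 5 over the 42 comparisons, no filter lost 14 and gained 17, and 1 fit of all libraries lost 12 and gained 8.

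With DESeq2, 4 members were called with D3 and 2 with D6 at 1 nM and 2 for D6 against D4 at 10 nM, and F12 with D6 at 50 nM was 0.18 (adjusted p = 0.0714). Without the filter on low counts, 1 member each was called with D3, D4 and D5 at 0.1 nM, 4 each with D3 and D6 at 1 nM, 5 with D2 at 10 nM, 4 for D2 at 50 against 0.1 nM, and, at 10 nM, 8 for D2 against D1 and 4 for D6 against D4. In 1 fit of all libraries, 0 were called with D3 and D6 and 1 with D4 at 1 nM, and 3 for both D3 against D2 and D6 against D4 at 10 nM. F12 there was 0.19 with both D3 and D6 at 50 nM (adjusted p = 0.0709 and 0.0596) and -0.25 for D5 against D4 at 10 nM (adjusted p = 0.0385). Apart from the tests above, shares of all genes called were computed only without mock replicates 5 and 6 and with the replicate block. Those shares were against mock. Under the other settings, a moved count cannot be read as particular to the members.

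Both settings added after seeing the data moved counts. Without mock replicates 5 and 6, 1 member each was called with D1 and D5 and 4 with D6 at 0.1 nM, 5 with D3, 10 with D4 and 9 with D6 at 1 nM, 6 with D2 at 10 nM and 10 with D2 at 50 nM, and F12 passed with D2 at 50 nM (0.24, adjusted p = 0.0424). The total against mock went from 139 to 200. Without replicate 1 of D3 at 1 nM, 1 member was called in place of 2.

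The replicate number was also fitted as a block, which leaves mock replicates 1 to 4 for the comparison, although same-numbered libraries did not deviate together (r from -0.224 to 0.166). With the replicate block, calls of members against mock rose from 139 to 211, while the share of all genes called over the 24 comparisons went from 9.93% to 9.06%. Of all genes, at most 1.53%, 3.78%, 23.04% and 29.5% were called at 0.1, 1, 10 and 50 nM. At 0.1 nM, 2 were called with D1, D3 and D5 and 6 with D4 and D6, and at 1 nM 3 with D1, 7 with D3, 9 with D4 and 7 with D6. At 10 nM 10 were called with D2 and 13 with D5, at 50 nM 10 with D2 and 14 with D5, for D2 at 50 against 0.1 nM 9, and at 10 nM 7 for D2 against D1 and 2 for D6 against D4. F12 under the block was 0.18 with D6 at 50 nM (adjusted p = 0.0608) and 0.19 for D6 at 50 against 0.1 nM (adjusted p = 0.0366). The block ended the calls of F7 with D6 (-0.55, adjusted p = 0.0636), of Fga with D4 and D6, and of Tfpi and Plau with D3 at 50 nM, and F10 was called higher in 1 comparison in place of 3.

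With 1 library left out in turn, F12 at 50 nM against mock ranged from 0.19 to 0.26 with D1, 0.18 to 0.25 with D2, 0.16 to 0.22 with D3, 0.17 to 0.24 with D4 and 0.13 to 0.25 with D6. The call was lost without D1 replicate 1 or 2 (0.21 and 0.19), without D3 replicate 1, 2 or 4 or mock replicate 4 (0.19, 0.18, 0.20 and 0.17), without D4 replicate 2 (0.17), and, for D6, without its replicate 1, 2 or 3 (0.17, 0.13 and 0.20) or mock replicate 1, 4, 5, 7 or 8 (0.18, 0.17, 0.19, 0.19 and 0.15). D2 gained it without its replicate 1 (0.25) or mock replicate 2 or 6 (0.23 for both). For D6 at 50 against 0.1 nM the range was 0.12 to 0.29, and F12 passed without replicate 2 at 0.1 nM (0.29) or replicate 4 at 50 nM (0.25). Members called with D5 at 50 nM ranged from 4 to 8, with 5 without mock replicate 3 or D5 replicate 2 or 4 and 4 without mock replicate 4 or D5 replicate 3. For 50 against 0.1 nM the range was 9 to 13 with D1 (9 without replicate 3 at 0.1 nM) and 2 to 4 with D2 (4 without replicate 3 at 0.1 nM). Counts of the other comparisons at 50 nM stayed within 1.5 times.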

Other observations

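Of 12 acute phase genes, such as serum amyloids and orosomucoids, 5 were called higher and 1 lower with D1 at 50 nM, 2 and 0 with D2, 7 and 2 with D3, 5 and 4 with D4, 0 and 1 with D5 and 2 and 4 with D6. Of all genes, 25.9%, 6.04%, 28.3%, 34.6%, 6.55% and 31.5% were called with D1 to D6 at that dose. Fgg, which is itself induced in the acute phase, was called higher with D1, D2, D3 and D5 and lower with D4 and D6. Gas6, a vitamin K-dependent relative of protein S, was higher with D4, D5 and D6 at 50 nM (0.55, 0.37 and 0.67 on the log2 scale), and Pros1 was called only with D1 (0.32). Anxa2, a cell-surface partner of plasminogen activation, was lower with D1 at 50 nM (-0.43) and not called with the other 5 siRNAs at that dose.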
